A study of Mus musculus with 6 samples.

Results

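The 32 genes described here encode the enzymes that bring long-chain fatty acids into mitochondria, shorten them by beta-oxidation, pass on the electrons, finish the end products of odd and branched chains, and make or interconvert ketone bodies. They were taken as a fixed list of gene symbols, matched through Ensembl gene identifiers, and are 32 of the 53953 rows that each library listed. All 32 were found, and 31 averaged 1 FPKM or more (FPKM, fragment counts divided by gene length and by library depth) in the 6 libraries and were tested. The exception was Cpt1b, the muscle-type carnitine palmitoyltransferase. No tested member was under 1 FPKM with vehicle, so none entered the test only through its values with arachidonic acid.

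In beta-oxidation a fatty acid bound to coenzyme A is shortened from one end in repeated rounds of dehydrogenation, hydration, a further dehydrogenation and thiolytic cleavage, and each round releases acetyl-CoA. Long chains enter as carnitine esters, and their rounds use dehydrogenases that prefer long chains and the membrane-bound trifunctional protein. Medium and short chains are completed by soluble enzymes of the matrix. The small-intestinal epithelium meets large amounts of dietary fat, and its oxidation genes are known targets of the lipid-sensing PPAR receptors.

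Organoids, epithelial cultures grown out of crypts in Matrigel, came from C57BL/6 wt mice and the proximal small intestine, and were used at passage 3 to 5. In 1 group they were given arachidonic acid, a long omega-6 fatty acid with several double bonds, dissolved in 0.1% ethanol, for 3 days and then passaged; the other group received the vehicle, 0.1% ethanol, alone. Total RNA was collected on day 3 after passaging, with 3 libraries per group, and the sources used here give no dose. The labels do not say if replicates were separate cultures or mice. The p-values therefore reflect only the scatter of these 6 libraries, possibly a technical one.

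The FPKM values implied 35.6 to 50.8 M fragments in the arachidonic acid libraries and 36.6 to 38.5 M in the vehicle libraries (M, 1e+06), and a tested member had at least 252 recovered fragments in every library. Arachidonic acid replicate 1 stood apart from the other libraries of its group: on the first principal component of all tested genes, which held 85.2% of the variance, it lay at -10.2, arachidonic acid replicates 2 and 3 at -58.1 and -54.6, and the vehicle libraries at 40.4 to 41.6. Epithelial markers (Epcam, Cdh1, Krt8, Krt18, Krt19) summed to 3814 to 4691 FPKM with arachidonic acid and 2432 to 2553 FPKM with vehicle; the 3 keratins rose, Epcam fell to 361 ± 80.8 FPKM with arachidonic acid against 548 ± 19 FPKM with vehicle (every error after ± is the SD over n = 3 libraries), and Cdh1 did not pass (adjusted p = 0.719). The 5 fibroblast markers summed to at most 0.191 FPKM in any library, and Cdh5, of endothelium, was listed at 0 in all. Of 5 immune markers only Cd68, of macrophages, was tested; it rose to 14.7 ± 10.4 FPKM with arachidonic acid against 1.90 ± 0.323 FPKM with vehicle. Markers of epithelial cell types moved with the groups. Of 8 enterocyte markers Alpi and Fabp1 rose and Sis and Apoa4 fell, to 0.176 and 0.396 times their vehicle means. The 8 summed to 2493 to 5595 FPKM with arachidonic acid and 1552 to 1924 FPKM with vehicle, but Fabp1 carried that difference: the other 7 summed to 1501, 1022 and 876 FPKM with arachidonic acid and 1239, 1513 and 1338 FPKM with vehicle. All 5 enteroendocrine markers fell, with sums of 101 to 141 FPKM with arachidonic acid and 546 to 649.6 FPKM with vehicle, as did 3 of 5 goblet markers (2 were not tested), at 241 to 439 FPKM with arachidonic acid and 893 to 1083 FPKM with vehicle, and 3 of 4 Paneth markers, at 283 to 494 FPKM with arachidonic acid and 1156 to 1891 FPKM with vehicle. Of 5 stem cell markers Ascl2 rose, to 3.16 times its vehicle mean, and 3 fell (Olfm4, Smoc2 and Slc12a2). Lgr5 did not pass (adjusted p = 0.552). The 5 summed to 350.4 to 452 FPKM with arachidonic acid and 675 to 725 FPKM with vehicle. Olfm4 alone was at 14.7 ± 16.6 FPKM with arachidonic acid and 190 ± 41.4 FPKM with vehicle. In bulk organoids fewer cells of a type and less RNA per cell cannot be told apart, and the part of these shifts in the members' values was not tested.

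With arachidonic acid the pathway did not move as a block. Cpt1a and Cpt2 of carnitine entry, the dehydrogenase genes Acadl and Acadvl, and both genes of the trifunctional protein, Hadha and Hadhb, rose to 1.78 to 2.90 times their vehicle means. These 6 genes of long-chain steps were put together after their values were seen, and the grouping was not tested. Acad9, grouped below with the straight-chain dehydrogenases, was left out of the 6 and fell to 0.853 times its vehicle mean. Among the genes that fell were Hadh, Acat1 and Pccb, which stood at 0.481, 0.512 and 0.444 times their vehicle means. Of the 31 tested members 9 rose and 9 fell, and 13 missed limma's threshold, a Benjamini-Hochberg adjusted p under 0.05. Over all 12913 tested genes 20.8% were called higher and 19.4% lower, and the members' shares were 29.0% in each direction. In either direction 58.1% of the members and 40.2% of all tested genes were called. The median log2 difference (arachidonic acid minus vehicle, of FPKM + 1, as all log2 differences of genes here) was 0.025 over the members and -0.029 over all tested genes, and the median absolute difference was 0.51 over the members and 0.27 over all. The groups did not overlap in 11 members that were higher and 11 that were lower, 35.5% of those tested in each direction, against 27.6% and 27.5% of all tested genes (55% in either direction).

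**Figure D1:**
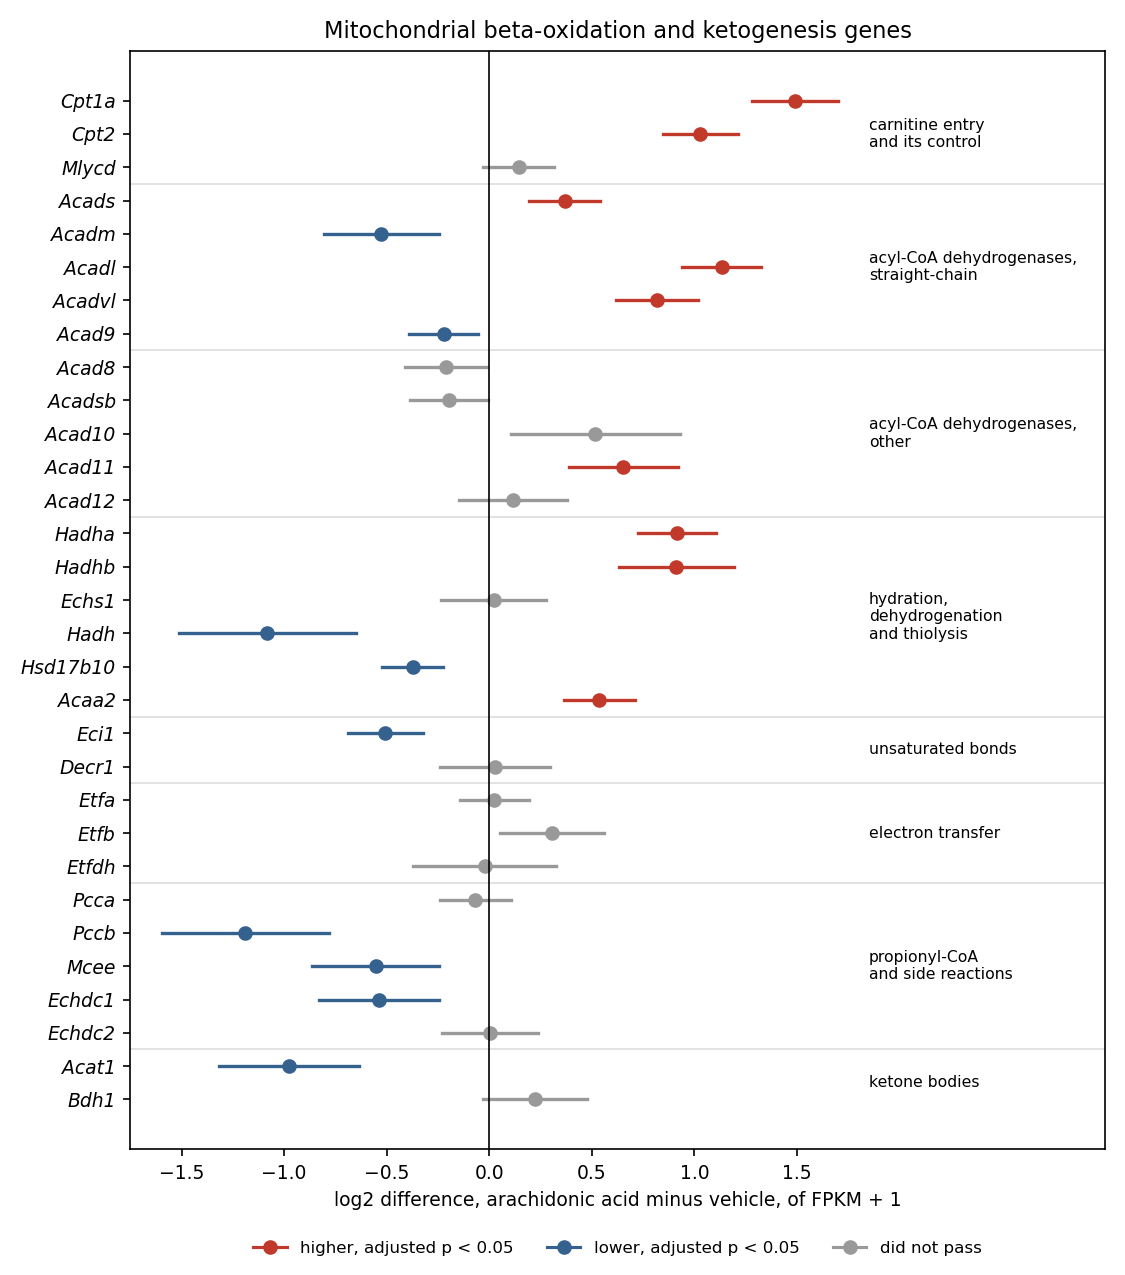
Log2 difference (arachidonic acid minus vehicle, of FPKM + 1) of each of the 31 tested members, grouped by role from top to bottom; dots are the limma estimates from 3 libraries per group, lines their 95% intervals, and colours the call at an adjusted p under 0.05. Cpt1a is farthest to the right at 1.49 and Pccb farthest to the left at -1.19, and the 3 electron transfer genes lie at -0.022 to 0.30.

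The 9 rises were called under all 14 alternative settings. Also called in all 14 were 5 of the falls, those of Hadh, Hsd17b10, Eci1, Pccb and Acat1. The number of lower members was 5 without vehicle replicate 2, where Acadm, Acad9, Mcee and Echdc1 no longer passed (adjusted p = 0.0563, 0.0927, 0.0619 and 0.0562), and it was 10 without arachidonic acid replicate 1. Without that replicate 10 members were higher: Acad10 was added to the rises (log2 difference 0.67, adjusted p = 0.0034) and Etfdh to the falls (log2 difference -0.19, adjusted p = 0.0414).

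Promoter windows of RefSeq on the build GRCm38.p6 ran from 250 bases before to 50 bases after a start site. Windows were used for 27 of the 32 members, some with 2 start sites, which gave 30 windows. The windows of members with opposite calls are shown because these genes act in neighbouring steps, and that of Hadhb because it also holds most of the promoter of Hadha. The start sites of Hadha and Hadhb lie 273 bases apart on opposite strands of chromosome 5, and their windows share 228 bases. Cpt1a (chr19:3323051-3323350, + strand), Acadl (chr1:66863260-66863559, - strand) and Hadhb (chr5:30155003-30155302, + strand) belong to members that rose, and Acadm (chr3:153944594-153944893, - strand) and Hadh (chr3:131272052-131272351, - strand) to members that fell. Each is written 5′ to 3′ on the strand of its gene, and capitals mark AGGTCA, the core motif of nuclear receptors, GGGCGG, the GC box, and CCAAT, on either strand.
Cpt1a: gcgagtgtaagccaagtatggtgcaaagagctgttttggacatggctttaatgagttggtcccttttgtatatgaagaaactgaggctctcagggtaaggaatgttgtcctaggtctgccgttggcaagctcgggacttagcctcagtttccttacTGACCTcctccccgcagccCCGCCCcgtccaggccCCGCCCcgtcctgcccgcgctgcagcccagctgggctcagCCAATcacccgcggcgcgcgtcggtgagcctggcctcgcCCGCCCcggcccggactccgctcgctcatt
Acadl: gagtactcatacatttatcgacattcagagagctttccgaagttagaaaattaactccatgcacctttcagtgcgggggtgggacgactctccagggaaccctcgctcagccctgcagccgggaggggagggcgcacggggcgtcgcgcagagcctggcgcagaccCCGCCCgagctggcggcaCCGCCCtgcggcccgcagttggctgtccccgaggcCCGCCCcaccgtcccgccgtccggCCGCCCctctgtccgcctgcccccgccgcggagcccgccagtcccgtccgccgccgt
Hadhb: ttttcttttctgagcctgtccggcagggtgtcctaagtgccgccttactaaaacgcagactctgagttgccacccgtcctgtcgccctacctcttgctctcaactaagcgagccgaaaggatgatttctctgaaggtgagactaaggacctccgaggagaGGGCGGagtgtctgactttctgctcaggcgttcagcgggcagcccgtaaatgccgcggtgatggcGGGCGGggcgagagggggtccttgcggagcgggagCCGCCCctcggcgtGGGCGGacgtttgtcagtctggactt
Acadm: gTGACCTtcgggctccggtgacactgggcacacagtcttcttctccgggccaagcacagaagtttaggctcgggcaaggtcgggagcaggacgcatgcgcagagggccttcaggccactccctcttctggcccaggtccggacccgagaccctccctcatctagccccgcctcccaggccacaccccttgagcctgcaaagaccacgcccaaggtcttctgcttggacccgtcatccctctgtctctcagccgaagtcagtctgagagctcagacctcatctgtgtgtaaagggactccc
Hadh: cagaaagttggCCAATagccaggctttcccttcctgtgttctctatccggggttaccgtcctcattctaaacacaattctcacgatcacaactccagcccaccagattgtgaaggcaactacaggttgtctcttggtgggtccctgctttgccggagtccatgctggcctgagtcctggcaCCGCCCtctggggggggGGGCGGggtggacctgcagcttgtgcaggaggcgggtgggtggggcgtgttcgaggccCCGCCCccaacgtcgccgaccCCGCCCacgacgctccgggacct

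Searched on both strands, GGGCGG was in 20 of the 30 member windows (66.7%) and in 35.7% of all 32851 windows of this length in the table, and CCAAT was in 14 (46.7%) and in 37.4% of all. AGGTCA was in 6 member windows (20%) and in 16.3% of all. A pair of AGGNCA copies in the same orientation with 1 base between (AGGTCA is a spelling of AGGNCA), the form that PPAR and RXR pairs bind, was in 0 member windows and in 0.381% of all, and TATAAA in 0 member windows and 13.6% of all. GGGCGG was in 7 of 8 windows of members that rose and 5 of 8 of those that fell. CCAAT was in 2 of 8 windows of members that rose and 5 of 8 of those that fell. Echdc1 gave 2 of the windows of members that fell, and both held CCAAT. Acaa2, which rose, was left out of the member counts because windows on its chromosome were not used for members. Its promoter was therefore not examined, and the counts for members that rose do not cover it. Acat1 and Acad9, which fell, also had no window in these counts. The member windows had a median GC content of 60.5%, and all windows of 52.7%. A match is a description of these letters in this window only.

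Entry into the mitochondrion begins with Cpt1a (ENSMUSG00000024900), the outer-membrane transferase that makes acyl-carnitines and the main point of control. It had 53.7, 52.3 and 50.9 FPKM in arachidonic acid replicates 1, 2 and 3 (the order used for every gene), against 16.5, 17.3 and 20.3 FPKM in the vehicle libraries. The lowest library with arachidonic acid was far above the highest with vehicle, and the log2 difference of 1.49 was the largest of any member (SE 0.09, adjusted p = 0.000415). Cpt2 (ENSMUSG00000028607), which turns acyl-carnitines back into acyl-CoA inside, had 119, 107 and 108 FPKM with arachidonic acid and 49.9, 57.4 and 54.9 FPKM with vehicle (log2 difference 1.03, SE 0.08, adjusted p = 0.00059). Both groups were tight and did not overlap. The ratio of Cpt1a to Cpt2 within a library was 0.470 ± 0.0176 with arachidonic acid and 0.334 ± 0.0347 with vehicle, a difference of 0.50 on the log2 scale (of plain FPKM, as for every ratio). Its exact two-sided permutation p was 0.1, the smallest that 3 libraries against 3 allow, and 0.12 when adjusted over the 6 ratios computed here.

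Cpt1b (ENSMUSG00000078937) was near the floor in every library, at 0.234, 0.0239 and 0.105 FPKM with arachidonic acid and 0.319, 0.140 and 0.221 FPKM with vehicle. The groups overlapped, and it was not tested. In the annotation 81.4% of its exon bases also belong to another gene on the same strand, so its level is uncertain. Mlycd, malonyl-CoA decarboxylase, which removes the inhibitor of carnitine palmitoyltransferase 1, had 17.3, 16.9 and 17.2 FPKM with arachidonic acid and 15.8, 16.1 and 14.4 FPKM with vehicle and did not pass (log2 difference 0.14, 95% interval -0.03 to 0.32, adjusted p = 0.153).

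The first dehydrogenation is carried out by a family of acyl-CoA dehydrogenases that differ in the chain length they prefer, and of the 5 members grouped here as straight-chain dehydrogenases 3 rose (Acadl, Acadvl and Acads) and 2 fell (Acadm and Acad9). Acadl (ENSMUSG00000026003), the long-chain enzyme, had 287, 292 and 269.9 FPKM with arachidonic acid, against 117, 128 and 141 FPKM with vehicle (log2 difference 1.13, SE 0.08, adjusted p = 0.00055). Acadvl (ENSMUSG00000018574), the very-long-chain enzyme of the inner membrane, had 183, 163 and 149 FPKM with arachidonic acid and 94.8, 91.0 and 92.4 FPKM with vehicle (log2 difference 0.82, SE 0.08, adjusted p = 0.00131). In both genes every arachidonic acid library was above every vehicle library. Of the exon bases of Acadvl 42.9% lie opposite Dvl2, which was at 16.2 to 17.5 FPKM with arachidonic acid and 23.6 to 26.3 FPKM with vehicle, and the sources used here do not say if counting used strand. Acads, the short-chain enzyme, rose less, to 55.1 ± 3.83 FPKM with arachidonic acid against 42.5 ± 1.58 FPKM with vehicle (log2 difference 0.37, SE 0.07, adjusted p = 0.00903).

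Acadm (ENSMUSG00000062908), the medium-chain enzyme, had 125, 98.7 and 93.0 FPKM with arachidonic acid and 140.5, 159 and 154 FPKM with vehicle. Arachidonic acid replicate 1 was the nearest of its group to the vehicle libraries, but the groups did not overlap. Acadm fell (log2 difference -0.53, SE 0.12, adjusted p = 0.0138), a call lost without vehicle replicate 2 (adjusted p = 0.0563) or replicate 3 of vehicle (adjusted p = 0.0522). The ratio of Acadm to Acadl was 0.372 ± 0.0540 with arachidonic acid and 1.18 ± 0.0788 with vehicle, and that of Acadm to Acadvl 0.638 ± 0.0383 with arachidonic acid and 1.63 ± 0.137 with vehicle. The groups did not overlap in either ratio (log2 differences -1.67 and -1.35, exact permutation p = 0.1 and adjusted p = 0.12 for each). Acadm held 17.3% ± 1.55 of the summed FPKM of Acads, Acadm, Acadl and Acadvl with arachidonic acid and 36.4% ± 1.38 with vehicle, and Acadl 46.6% ± 2.40 with arachidonic acid and 31.0% ± 1.69 with vehicle. The summed FPKM of the 4 genes was 654, 605 and 565 with arachidonic acid, against 397, 419 and 429 with vehicle.

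**Figure D2:**
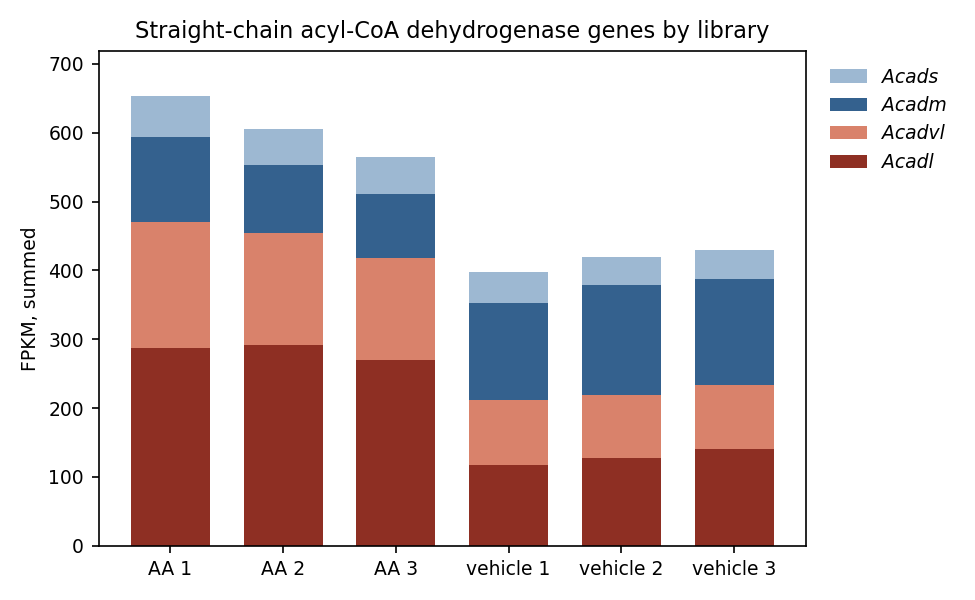
FPKM of Acads, Acadm, Acadvl and Acadl stacked for each of the 6 libraries, arachidonic acid (AA) on the left and vehicle on the right. The bars reach 565 to 654 FPKM with arachidonic acid and 397 to 429 FPKM with vehicle, while the Acadm segment is smaller in each arachidonic acid library than in any vehicle library.

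Acad9, a family member needed for the assembly of respiratory complex I, fell slightly, to 24.3 ± 1.46 FPKM with arachidonic acid against 28.5 ± 0.836 FPKM with vehicle (log2 difference -0.22, SE 0.07, adjusted p = 0.0438). That call was lost in 9 of 14 alternative settings, with adjusted p up to 0.139. Acad8 and Acadsb, which serve valine and isoleucine breakdown, did not pass: Acad8 was at 21.9 ± 1.80 FPKM with arachidonic acid and 25.5 ± 1.41 FPKM with vehicle (adjusted p = 0.0837), and Acadsb at 17.9 ± 0.777 FPKM with arachidonic acid and 20.7 ± 1.44 FPKM with vehicle (adjusted p = 0.0881). Acad11 (ENSMUSG00000090150), a further member of the family, had 20.7, 16.5 and 15.9 FPKM with arachidonic acid and 10.7, 11.4 and 10.3 FPKM with vehicle (log2 difference 0.65, SE 0.11, adjusted p = 0.00585). Its groups did not overlap, and arachidonic acid replicate 1 was the highest library. Acad10 was at 7.42 ± 1.53 FPKM with arachidonic acid and 4.85 ± 0.874 FPKM with vehicle (log2 difference 0.52, adjusted p = 0.0515), and Acad12 at 4.76 ± 0.567 FPKM with arachidonic acid and 4.30 ± 0.240 FPKM with vehicle (adjusted p = 0.433). These 2 genes have transcripts that are 95.3% identical over 1614 bases, so reads may have been split between them.

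Of the next steps, hydration, the further dehydrogenation and thiolysis, long chains use the trifunctional protein, whose alpha subunit is encoded by Hadha and beta subunit by Hadhb. Hadha (ENSMUSG00000025745) had 332, 306 and 282 FPKM with arachidonic acid, against 153, 169 and 163 FPKM with vehicle (log2 difference 0.92, SE 0.08, adjusted p = 0.000886). Hadhb (ENSMUSG00000059447) had 192, 148 and 143 FPKM with arachidonic acid and 80.4, 84.9 and 87.9 FPKM with vehicle (log2 difference 0.91, SE 0.12, adjusted p = 0.00254). The lowest arachidonic acid library was above the highest vehicle library in both. The ratio of Hadha to Hadhb was 1.92 ± 0.177 with arachidonic acid and 1.92 ± 0.0708 with vehicle (log2 difference 0.0011, exact permutation p = 1). The 228 bases that their promoter windows share lie within the Hadhb window printed above.

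Transcripts of the gene Gm13910 are 99.8% identical to Hadhb over 1428 bases. It was listed at 66.9, 49.2 and 48.8 FPKM with arachidonic acid and 29.8, 29.9 and 33.3 FPKM with vehicle, which is 0.333 to 0.348 of the FPKM of Hadhb in the same library with arachidonic acid and 0.352 to 0.379 with vehicle. A further copy, Gm9108, was listed at 1.59 to 2.14 FPKM with arachidonic acid and 0.563 to 0.960 FPKM with vehicle. The level of Hadhb, and its ratio to Hadha, are uncertain by the reads listed under these copies. Summed over Hadhb and Gm13910, the FPKM were 259, 197 and 192 with arachidonic acid and 110.2, 115 and 121 with vehicle, a log2 difference of 0.89.

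The soluble enzymes that take medium and short chains through the same steps did not follow. Hadh (ENSMUSG00000027984), the 3-hydroxyacyl-CoA dehydrogenase of the matrix, had 102, 68.3 and 60.9 FPKM with arachidonic acid, against 152, 169 and 159.8 FPKM with vehicle. It fell (log2 difference -1.08, SE 0.18, adjusted p = 0.00544). Every arachidonic acid library was below every vehicle library, and arachidonic acid replicate 1 was the nearest of its group to them. Hadh was at 0.307, 0.223 and 0.216 times the FPKM of Hadha with arachidonic acid and at 0.989, 1.0 and 0.981 times with vehicle, a ratio formed after the values were seen and not tested. Hsd17b10, a dehydrogenase of short branched chains that is also a subunit of mitochondrial RNase P, fell to 116 ± 5.01 FPKM with arachidonic acid against 150.2 ± 5.16 FPKM with vehicle (log2 difference -0.37, SE 0.06, adjusted p = 0.00516). Echs1, the short-chain enoyl-CoA hydratase, was at 51.1 ± 7.19 FPKM with arachidonic acid and 49.9 ± 1.46 FPKM with vehicle (log2 difference 0.022, 95% interval -0.24 to 0.28, adjusted p = 0.885).

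Acaa2 (ENSMUSG00000036880), the 3-ketoacyl-CoA thiolase of the matrix, was the exception among these, with 203, 186 and 178 FPKM with arachidonic acid and 124, 128 and 136.5 FPKM with vehicle. Its groups did not overlap and it rose (log2 difference 0.54, SE 0.07, adjusted p = 0.00292). Sorted in this way after the values were seen, the 6 genes of the long-chain arm (Cpt1a, Cpt2, Acadvl, Acadl, Hadha, Hadhb) had log2 differences of 0.82 to 1.49. Of the 7 genes of matrix enzymes of shorter chains (Acads, Acadm, Echs1, Hadh, Hsd17b10, Acaa2, Acat1), 2 rose and 4 fell, with log2 differences of -1.08 to 0.54. Acad9, grouped above with the straight-chain dehydrogenases, was placed in neither set and fell (log2 difference -0.22, adjusted p = 0.0438). No test was made of this grouping.

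**Figure D3:**
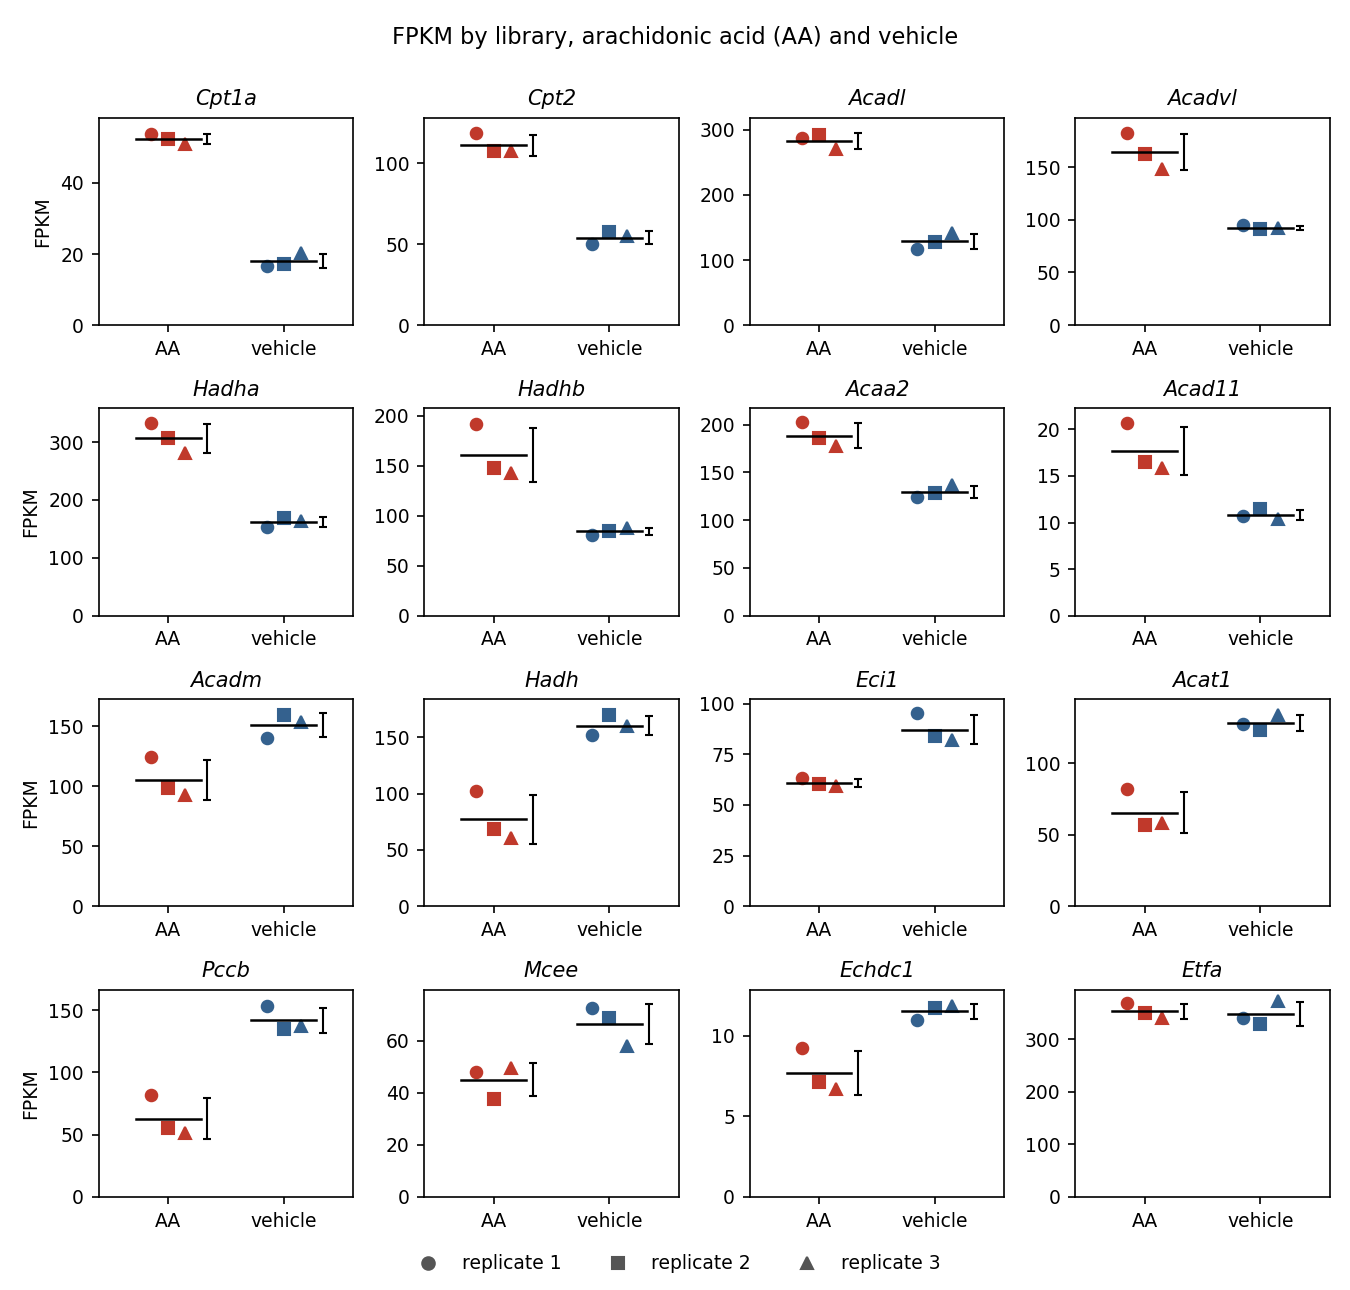
FPKM of 16 members in each library, with arachidonic acid (AA) left of vehicle in every panel; symbols give the replicate, horizontal lines the mean and error bars the SD of 3 libraries. Cpt1a lies at 50.9 to 53.7 FPKM with arachidonic acid and 16.5 to 20.3 FPKM with vehicle, Pccb at 51.6 to 82.0 FPKM with arachidonic acid and 135 to 153 FPKM with vehicle, and Etfa overlaps between the groups.

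Unsaturated chains such as arachidonic acid need auxiliary enzymes that shift or remove double bonds before the cycle can go on. Eci1 (ENSMUSG00000024132), the mitochondrial enoyl-CoA isomerase, had 63.1, 60.5 and 59.1 FPKM with arachidonic acid, against 95.5, 83.9 and 82.0 FPKM with vehicle. All arachidonic acid libraries were below all vehicle libraries, and it fell (log2 difference -0.51, SE 0.08, adjusted p = 0.0039). Decr1, the dienoyl-CoA reductase, was at 57.9 ± 9.47 FPKM with arachidonic acid and 56.3 ± 0.816 FPKM with vehicle (log2 difference 0.030, 95% interval -0.24 to 0.30, adjusted p = 0.849). Outside the members, Eci2, an enoyl-CoA isomerase found in mitochondria and peroxisomes, rose, at 186 ± 16.5 FPKM with arachidonic acid and 54.8 ± 1.67 FPKM with vehicle (log2 difference 1.74, adjusted p = 0.000133).

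Electrons from the acyl-CoA dehydrogenases pass to the electron transfer flavoprotein, made of the products of Etfa and Etfb, and then through Etfdh to ubiquinone. No gene of the 3 passed. Etfa (ENSMUSG00000032314), with the highest mean FPKM of the members, had 370, 350.0 and 342 FPKM with arachidonic acid and 342, 329 and 374 FPKM with vehicle (log2 difference 0.025, 95% interval -0.14 to 0.19, adjusted p = 0.799). Etfb (ENSMUSG00000004610) had 18.2, 15.9 and 16.4 FPKM with arachidonic acid and 15.5, 12.5 and 12.5 FPKM with vehicle (log2 difference 0.30, SE 0.11, adjusted p = 0.0594), and it passed under 3 alternatives, TPM rescaling (adjusted p = 0.0272), scaling by median of ratios (adjusted p = 0.0429) and leaving out vehicle replicate 1 (adjusted p = 0.0374). The groups did not overlap for Etfb and overlapped for Etfa. The ratio of Etfa to Etfb was 21.1 ± 0.848 with arachidonic acid and 26.1 ± 3.89 with vehicle (log2 difference -0.30, exact permutation p = 0.1, adjusted p = 0.12). In the annotation 58.2% of the exon bases of Etfb also belong to other genes on the same strand, so its level is uncertain. Etfdh, the ubiquinone oxidoreductase, was at 62.0 ± 13.6 FPKM with arachidonic acid and 62.1 ± 3.49 FPKM with vehicle (log2 difference -0.022, adjusted p = 0.917); arachidonic acid replicate 1 was at 77.6 FPKM and replicates 2 and 3 at 56.2 and 52.3 FPKM.

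Odd-numbered and branched chains end in propionyl-CoA, which propionyl-CoA carboxylase and methylmalonyl-CoA epimerase convert on the way to succinyl-CoA. The 2 subunit genes of the carboxylase parted. Pccb (ENSMUSG00000032527), the beta subunit, had 82.0, 55.1 and 51.6 FPKM with arachidonic acid, against 153, 135 and 138 FPKM with vehicle. It fell furthest of all members (log2 difference -1.19, SE 0.17, adjusted p = 0.00341), and arachidonic acid replicate 1 was the nearest of its group to the vehicle libraries. Pcca (ENSMUSG00000041650), the alpha subunit, had 42.3, 45.9 and 47.1 FPKM with arachidonic acid and 44.7, 47.5 and 49.9 FPKM with vehicle. The groups overlapped (log2 difference -0.068, 95% interval -0.24 to 0.10, adjusted p = 0.477). The ratio of Pcca to Pccb was 0.754 ± 0.210 with arachidonic acid and 0.336 ± 0.0382 with vehicle, a log2 difference of 1.13, with no overlap between the groups (exact permutation p = 0.1, adjusted p = 0.12).

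Mcee (ENSMUSG00000033429), the epimerase, had 48.0, 37.7 and 49.5 FPKM with arachidonic acid and 72.6, 68.8 and 58.0 FPKM with vehicle. It fell (log2 difference -0.55, SE 0.13, adjusted p = 0.0164), and did not pass without vehicle replicate 1 (adjusted p = 0.0671) or vehicle replicate 2 (adjusted p = 0.0619). Echdc1 (ENSMUSG00000019883), a decarboxylase that clears ethylmalonyl-CoA, had 9.24, 7.12 and 6.71 FPKM with arachidonic acid and 11.01, 11.7 and 11.8 FPKM with vehicle. It fell (log2 difference -0.54, SE 0.12, adjusted p = 0.0145), a call lost without any 1 of arachidonic acid replicates 2 and 3 and vehicle replicates 2 and 3 (adjusted p = 0.0508 to 0.0562). Its exons are 86.4% covered by genes on the other strand, mainly Rnf146, listed at 5.95 to 6.40 FPKM with arachidonic acid and 8.25 to 8.55 FPKM with vehicle. Echdc2, a mitochondrial protein with an enoyl-CoA hydratase domain, was at 58.1 ± 5.41 FPKM with arachidonic acid and 58.0 ± 5.19 FPKM with vehicle (adjusted p = 0.987). Of 8 further genes tested on the route from propionate to succinyl-CoA, 0 rose and 2 fell (25%). Over all tested genes 20.8% were called higher and 19.4% lower, so the share that fell was near that of all genes. Mmab, an adenosyltransferase of vitamin B12, fell to 21.9 ± 1.11 FPKM with arachidonic acid against 28.8 ± 1.04 FPKM with vehicle (adjusted p = 0.0071). Mmachc, which processes vitamin B12, fell to 10.2 ± 2.21 FPKM with arachidonic acid against 16.8 ± 1.77 FPKM with vehicle (adjusted p = 0.014).

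Ketone bodies are made from acetyl-CoA in several steps, of which a thiolase takes the first and beta-hydroxybutyrate dehydrogenase the last. Acat1 (ENSMUSG00000032047), the mitochondrial acetoacetyl-CoA thiolase, which also acts in isoleucine and ketone body breakdown, had 81.9, 56.7 and 57.9 FPKM with arachidonic acid, against 127, 123 and 134 FPKM with vehicle. It fell (log2 difference -0.98, SE 0.14, adjusted p = 0.00359), and every arachidonic acid library was below every vehicle library. Bdh1 (ENSMUSG00000046598), beta-hydroxybutyrate dehydrogenase, had 175, 156 and 169 FPKM with arachidonic acid and 132, 132 and 167 FPKM with vehicle. It did not pass (log2 difference 0.22, 95% interval -0.03 to 0.47, adjusted p = 0.135) except without vehicle replicate 3 (adjusted p = 0.0331), and vehicle replicate 3 lay among the arachidonic acid libraries.

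Of 12 other genes of ketone body use and transport, 7 were tested. Of these 3 rose (42.9%) and 2 fell (28.6%), against 20.8% and 19.4% of all tested genes. Slc16a1, a transporter of lactate and ketone bodies, rose to 44.6 ± 3.33 FPKM with arachidonic acid against 28.2 ± 1.71 FPKM with vehicle (adjusted p = 0.0024). The cytosolic enzymes fell: Aacs, which activates acetoacetate for lipid synthesis, to 105 ± 13.8 FPKM with arachidonic acid against 182 ± 3.66 FPKM with vehicle (adjusted p = 0.0021), and Acat2, the cytosolic thiolase, to 67.2 ± 8.05 FPKM with arachidonic acid against 106 ± 7.18 FPKM with vehicle (adjusted p = 0.00406).

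Arachidonic acid replicate 1 was above both other libraries of its group in 7 of the 8 members that rose by at least 0.5 log2 units and in 6 of the 7 that fell by at least as much. Its place was expressed, in FPKM, on a scale where the vehicle mean is 0 and the mean of arachidonic acid replicates 2 and 3 is 1. Over these 8 rises it was 1.04 (Acadl) to 1.83 (Acad11), with a median of 1.35, so replicate 1 lay beyond the mean of the other two in each. Over these 7 falls it was 0.48 (Acadm) to 0.88 (Eci1), with a median of 0.65, between the vehicle mean and the others. Over all genes called with such a difference the medians were 0.51 for 1671 higher and 0.65 for 1381 lower genes. Replicate 1 was part of the test, so these positions are selected in part by its own values. Over all members, called or not, it was above both other libraries of its group in 21 of the 31 members (67.7%) and in 49.9% of all tested genes. Without it, the log2 differences were smaller in the rises of Hadhb, at 0.78, and Acad11, at 0.54, and larger in the falls of Hadh, at -1.30, Pccb, at -1.39, and Acat1, at -1.15.

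**Figure D4:**
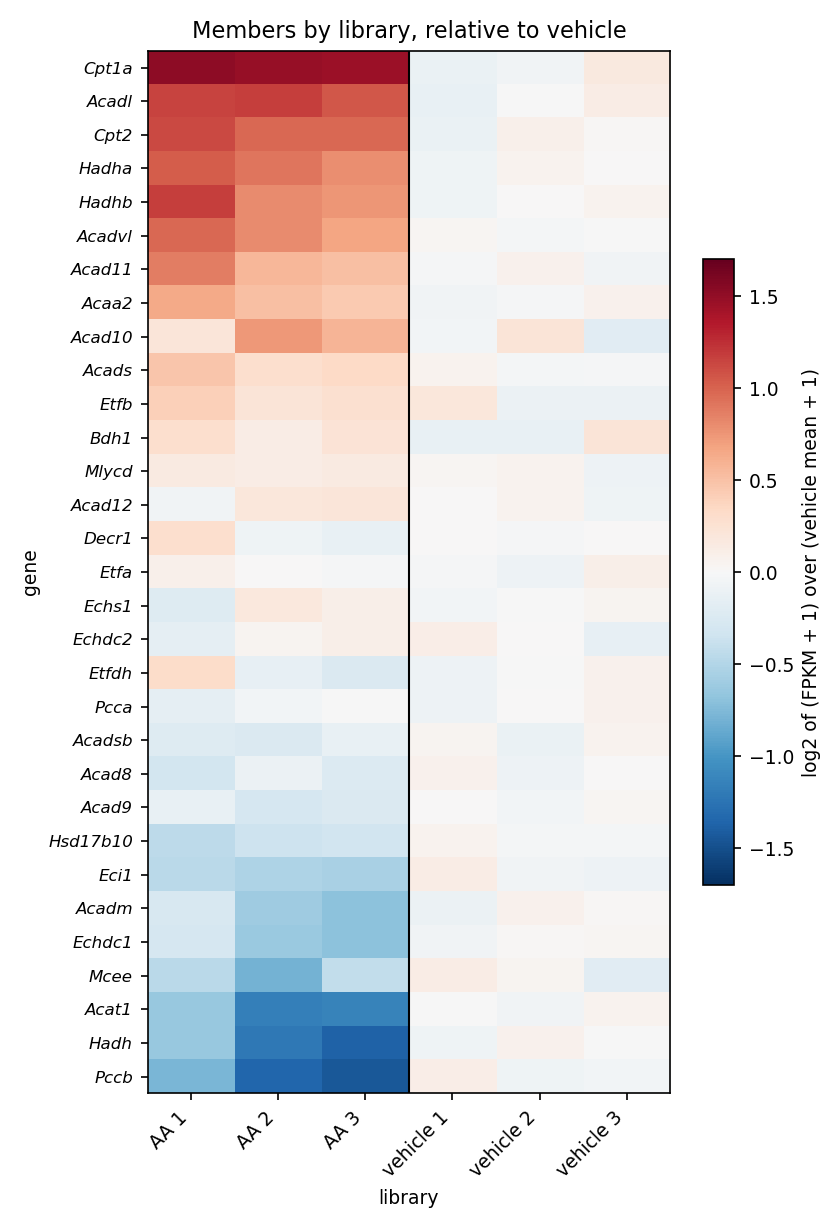
Log2 of (FPKM + 1) over (vehicle mean + 1) for the 31 tested members (rows, ordered by the log2 difference) in the 6 libraries (columns, arachidonic acid, AA, on the left). In most of the rising genes at the top replicate 1 of arachidonic acid is as red as replicates 2 and 3 or redder, and in most of the falling genes at the bottom it is paler, as in Hadh with 102 FPKM against 68.3 and 60.9 FPKM.

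Of 16 other genes tested in carnitine handling and fatty acid activation, 8 rose (50%) and 1 fell (6.25%), against 20.8% and 19.4% of all tested genes. The vehicle means of 2 of the 16, Acsm3 and Acacb, lay under 1 FPKM, and they reached the test through the arachidonic acid libraries alone. Slc25a20, the carrier that exchanges acyl-carnitines for carnitine across the inner membrane, rose to 50.7 ± 4.90 FPKM with arachidonic acid against 22.6 ± 2.0 FPKM with vehicle (log2 difference 1.13, adjusted p = 0.00091), and Slc22a5, the carnitine importer of the plasma membrane, to 33.3 ± 0.768 FPKM with arachidonic acid against 16.3 ± 0.458 FPKM with vehicle (log2 difference 0.99, adjusted p = 0.000415). The carnitine acyltransferase genes Crot and Crat rose by 1.32 and 0.98 log2 units, and Acsl5, an acyl-CoA synthetase, by 0.57. The others that rose were Acsm3, Acacb and Slc22a4, and Bbox1, of carnitine synthesis, fell (log2 difference -1.03, adjusted p = 0.0326).

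Peroxisomes run their own beta-oxidation, and 13 of 21 tested genes there rose and 2 fell, with a median log2 difference of 0.56. They included Acaa1b, a peroxisomal thiolase, at 90.5 ± 22.2 FPKM with arachidonic acid and 15.2 ± 1.17 FPKM with vehicle, and Hsd17b4, the multifunctional enzyme, at 205 ± 14.3 FPKM with arachidonic acid and 104 ± 6.04 FPKM with vehicle. Abcd3, a peroxisomal acyl-CoA transporter, and Acox2, an acyl-CoA oxidase, rose by 1.06 and 2.23 log2 units. Of 16 tested genes of other mitochondrial enoyl-CoA, acyl-CoA and branched-chain enzymes 3 rose and 4 fell, among them Eci2 and Bcat2 (1.74 and 1.39 log2 units) and Mccc2 and Gcdh (-0.50 and -0.89). Of 14 tested PPAR target genes outside oxidation 11 rose (78.6%) and 1 fell (7.14%), against 20.8% and 19.4% of all tested genes. With vehicle 4 of the 14 were under 1 FPKM, and they reached the test through the arachidonic acid libraries alone. The smallest p-values were those of Vnn1, Pdk4, Angptl4 and Plin2, at 4.05, 3.55, 2.45 and 0.98 log2 units, of which Vnn1 and Pdk4 were under 1 FPKM with vehicle. Among 14 receptors and coactivators 2 rose and 5 fell. Ppard, PPAR delta, rose to 53.3 ± 15.9 FPKM with arachidonic acid against 14.8 ± 0.616 FPKM with vehicle, and Pparg, PPAR gamma, to 51.5 ± 12.2 FPKM with arachidonic acid against 23.8 ± 1.38 FPKM with vehicle. Hnf4a and Esrra, nuclear receptors of intestinal and mitochondrial genes, fell by 0.58 and 0.29 log2 units. Ppara did not pass (log2 difference -0.34, adjusted p = 0.202), nor did Ppargc1a (adjusted p = 0.992).

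Few general mitochondrial genes rose. Of 86 tested subunits of oxidative phosphorylation 2 rose (2.33%) and 29 fell (33.7%), with a median log2 difference of -0.17. Of 77 mitochondrial ribosomal protein genes 2 rose (2.60%) and 15 fell (19.5%), with a median of -0.16. Over all tested genes 20.8% were called higher and 19.4% lower. The share of ribosomal protein genes that fell was thus near that of all genes. Ndufb11, Atp5mpl, Atp5h and Cox7a2l had the smallest p-values of the subunits, at -0.45, -0.41, -0.39 and -0.50, and Mrpl48, Mrpl9 and Mrpl42 of the ribosomal proteins that fell, at -0.46, -0.36 and -0.46, beside Mrpl17, which rose by 0.34. Genes of the mitochondrial genome held 2.21% to 2.66% of recovered fragments with arachidonic acid and 3.18% to 4.17% with vehicle. Of 18 citric acid cycle genes 3 rose and 3 fell, 16.7% in each direction. Cs, citrate synthase, and Ogdh were higher by 0.45 and 0.42, and Idh3g was lower (log2 difference -0.37). Some genes stand in more than 1 list, such as Crot (carnitine and peroxisomal). These counts are descriptions of each list, and the difference between lists was not tested.

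**Figure D5:**
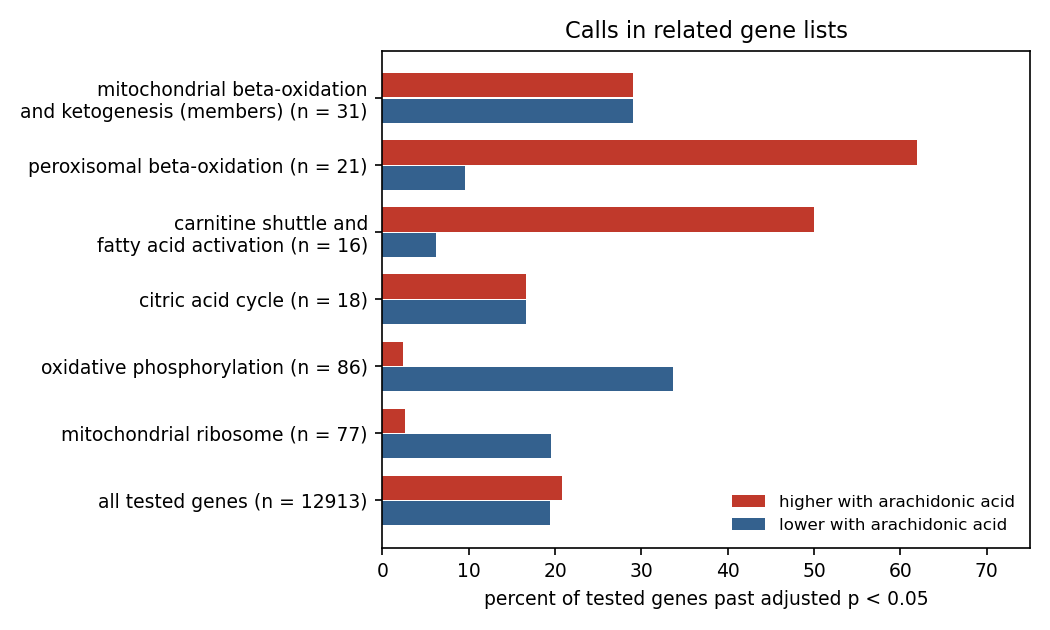
Percent of the tested genes of each list that passed an adjusted p under 0.05, higher (red) or lower (blue) with arachidonic acid; n is the number tested. The mitochondrial beta-oxidation and ketogenesis genes show 29.0% in each direction, peroxisomal beta-oxidation 61.9% higher and 9.52% lower, oxidative phosphorylation 2.33% higher and 33.7% lower, and all tested genes 20.8% and 19.4%.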

How the data were processed

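RNA from 6 organoid libraries, 3 given arachidonic acid and 3 given vehicle, was sequenced by standard Illumina methods. The deposited values are FPKM made by the authors; no label or header names the unit, which was inferred from the values. The submitters' processing notes, per the labels, name featureCounts 1.5.0-p3, HISAT2 2.0.5 and StringTie 1.3.3b, without role or order. The sources used here give no genome build, annotation or strand setting.

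FPKM multiplied by the mean transcript length of GENCODE M21 was a multiple of 1 constant within a library: 96.3% to 96.7% of values under 100 fragments were within 0.1 of a whole number. That constant gave the depth, and the recovered fragments (98.3% to 98.5% of it) served the limma-voom alternative. Because the length is a mean over transcripts, levels of different genes are less comparable than levels of 1 gene across libraries.

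Symbols were found for 53274 of 53465 Ensembl identifiers, and 488 rows had none. The 12913 genes that averaged 1 FPKM or more were fitted as log2(FPKM + 1) by group with limma 3.58.1 in R 4.3.3, with a variance trend. Two-sided p-values were adjusted over these 12913 genes (Benjamini-Hochberg), and an adjusted p under 0.05 counted as a call. Adding 1 understates the ratio of low values. The script was tested on simulated data. Ratios of 2 members were compared by an exact permutation test over the 20 splits. Overlapping and near-identical genes were looked up in GENCODE M21 (transcripts at least 95% identical over 200 bases, BLAST). Tables were made with Python 3.11.15.

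The members and lists were chosen with earlier results of these data known. All members are named. Values in every library are given for those called with a log2 difference of at least 0.5, those in a ratio and those under 1 FPKM. Of each other list up to 4 genes with the smallest p are named, or all called for the ketone, carnitine and propionate lists; a few of these are not reported here. Ppara and Ppargc1a were named after their values were seen. The alternatives were quantile normalization, TPM rescaling, adding 0.1 instead of 1, a filter at 5 FPKM or none, median-of-ratios scaling, a replicate block, limma-voom and each library left out. The labels do not say that replicate numbers pair cultures, and deviations of same-numbered libraries from their group means correlated across genes at -0.0811, 0.210 and -0.0623.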

Additional observations from a re-analysis of the deposited data

How the results depend on the processing

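Over the 31 tested members and up to 14 alternative settings 433 log2 differences were computed: 17 were no longer called, 8 became called, 16 changed sign, and the rest kept their direction and their side of the threshold. With 1 library left out, the genes called higher numbered 1712 to 3554 and lower 1245 to 4192 over all genes, and 9 to 10 and 5 to 10 over the members. Signs changed only in members near 0 that were not called: with quantile normalization Echs1 was at -0.024, Decr1 at -0.025 and Echdc2 at -0.048, with limma-voom Echdc2 was at -0.00097, and with TPM rescaling Etfdh was at 0.037. With 1 library left out Echs1 ranged over -0.055 to 0.14, Decr1 -0.098 to 0.11, Echdc2 -0.065 to 0.078, Etfdh -0.19 to 0.088, Etfa -0.015 to 0.077, and the log2 ratio of Hadha to Hadhb -0.055 to 0.076; the cause was not tested. With a replicate block 2263 genes were higher and 1998 lower, and 10 members were higher (Acad10 added) and 8 lower (Acad9 lost), but the samples share only a number. TPM rescaling called 11 members higher and 8 lower, and median-of-ratios scaling 10 and 9. The 3 libraries per group, from cultures of unknown relation, limit the precision, and intervals of members that did not pass leave differences of the size of their bounds possible.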
